A study of Mus musculus with 7 samples.

Results

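The genes described here encode the machinery that removes proteins covalently trapped on DNA, together with the topoisomerases, whose stalled reaction intermediates are a main source of such crosslinks. They were chosen by name from the deposited liver count table, and 31 of the 32 names listed were found among 51826 genes. Sumo3 is split there over 2 rows with other names, which are described apart. Liver RNA was sequenced from 4 Sprtn knock-in and 3 wild-type C57BL/6J males, untreated and 6 months old, and the knock-in mice carried the point mutation Y118C on both Sprtn alleles. The mutation is named as a knock-in with no Cre, transgene or tissue restriction, and the sources used here do not say how the allele was made or whether the groups were littermates. Each library was treated as 1 animal, and since the labels do not say that libraries were prepared separately, the p-values measure the spread between these libraries.

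When a protein becomes covalently bound to DNA, it blocks replication and transcription. SPRTN, a DNA-dependent metalloprotease, cuts the protein down at replication forks, and the proteasome provides another route that is guided by SUMO and ubiquitin. The ATPase p97, encoded by Vcp, unfolds modified proteins and extracts them from chromatin. Topoisomerases cut and reseal DNA through a tyrosine that is briefly bonded to the strand. If the protein is trapped at that step, the tyrosyl-DNA phosphodiesterases release what remains of it. Few cells of the adult liver divide, and a subset of these genes, among them Top2a, Chek1, Traip and Neil3, is known to be transcribed mainly in dividing cells.

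The mutation lies in the catalytic domain, next to the residues that bind zinc, and the stretch around it is shown because this codon is the designed difference between the groups. In the GENCODE release M21 transcript of Sprtn on GRCm38, the build also called mm10, codon 118 is TAC, a tyrosine codon, in exon 3 of 5 (chr8:124900234-124900236, plus strand). The only match in the 497 codons to the metalloprotease signature histidine, glutamate, any residue, any residue, histidine begins at codon 112 and ends at codon 116, so that codon 118 is 2 codons past it. Codons 110 to 133 (chr8:124900210-124900281) are given in the reference form, with the histidine and glutamate codons 112, 113 and 116 and the mutated codon 118 in capitals.

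Sprtn, codons 110 to 133: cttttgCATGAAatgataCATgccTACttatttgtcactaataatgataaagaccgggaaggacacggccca

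The base change that gives the cysteine is not stated in the labels, and the count table cannot show it.

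Total counts ranged from 36928472 to 46755357 per library. Levels of a gene are compared between libraries in CPM, its count per 1000000 counts of the library after scaling for composition (TMM), and levels of different genes in TPM, deposited values that allow for gene length and sum to 1000000. The knock-in libraries scored -26.4 to -7.95 on principal component 1, which held 29.5% of the variance, and so did not separate from wild-type replicate 1 at -9.56, while wild-type replicates 2 and 3 scored 32.5 and 36. Knock-in replicate 1 carried skeletal muscle transcripts, with 71 CPM summed over 6 markers against 0.472 to 1.2 CPM in each of the other 6 libraries. The hepatocyte markers were all present, at 73200 to 92700 summed CPM in knock-in livers and 85900 to 100000 CPM in wild-type livers over 10 genes. The 10 Kupffer cell markers summed to 314 to 417 CPM in knock-in livers and 400 to 496 CPM in wild-type livers. These sums overlapped (exact two-sided permutation p = 0.0857). All 10 Kupffer cell markers had negative log2 differences, where 50.1% of all tested genes had positive ones. Of these markers, 1 was called in the test between genotypes described below, against 0.0357% of all tested genes. The 5 erythroid markers also all had negative log2 differences, and the 3 tested neutrophil markers all had positive ones. The 4 adipocyte markers summed to 3.81 to 17.2 CPM in knock-in livers and 1.62 to 3.12 CPM in wild-type livers, and of the 12 marker lists this was the one whose sums did not overlap between genotypes; Lep was at 0 in all libraries. In bulk tissue, fewer cells of a type and less RNA per cell cannot be told apart, and the part of cell composition in the values below was not tested.

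Levels spanned a wide range. Per unit length, Vcp was the highest, at 152 ± 10.4 TPM in knock-in livers and 152 ± 4.76 TPM in wild-type livers (SD, n = 4 and 3). Sumo2, Tex264, Nploc4 and Rnf4 followed with means over all 7 libraries of 58.2, 46.5, 33.4 and 30.6 TPM. A broad middle group ran from Tdp2 at 16.3 TPM to Vcpip1 at 8.70 TPM, in which the ranges of neighbouring genes over the 7 libraries overlapped. The ranges did not overlap between Rnf4 and Tdp2, or between Vcpip1 and Rfwd3 below it at 5.80 TPM. Sprtn stood at rank 20 of 31, with 4.70 ± 0.577 TPM in knock-in livers and 4.21 ± 0.513 TPM in wild-type livers. At the bottom, Top2a, Usp11, Chek1, Traip and Neil3 each averaged under 1 TPM, as did Tdp1 at 0.817 TPM.

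**Figure D1:**
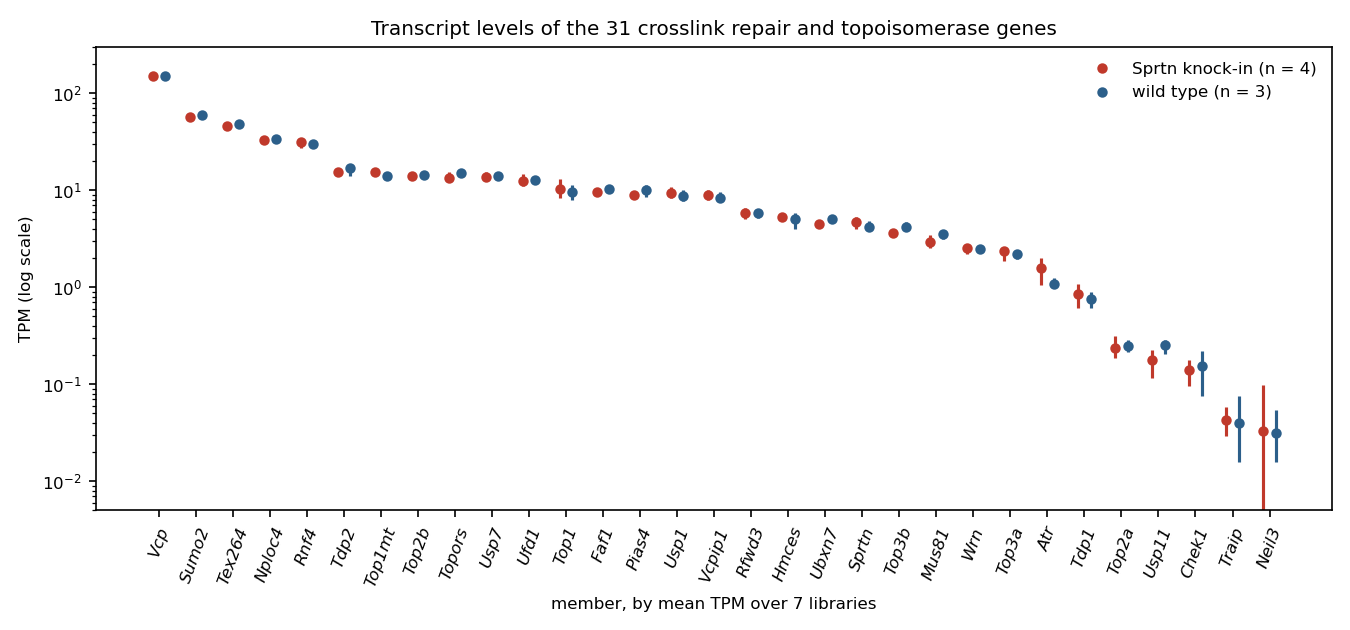
Mean TPM on a log scale for the 31 genes, ordered by their mean over 7 libraries; points are group means and lines run from the lowest to the highest library (knock-in, n = 4, red; wild type, n = 3, blue). The knock-in line of Neil3 runs off the axis because 1 library had 0 counts. Levels run from 152 TPM for Vcp to 0.032 TPM for Neil3, and the ranges of both genotypes overlap for most genes.

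No gene of the module passed the test between genotypes, in which p-values were adjusted over all tested genes by the Benjamini-Hochberg method and a gene was called at an adjusted p under 0.05. The edgeR quasi-likelihood test called 0 of the 29 members with enough counts to be tested, higher or lower, where 0.0357% of all 13989 genes were called (0.0286% higher and 0.00715% lower). DESeq2 called 0 members against 1.36% of the genes it gave an adjusted p, and limma-voom called 0 against 0.05%. At an unadjusted p under 0.05, edgeR held 1 member, Atr, where 10.6% of all tested genes were held (5.6% higher and 4.97% lower). It was higher in the knock-in. Knock-in and wild-type libraries did not overlap for 1 member, Mus81, where this was so for 10.9% of all tested genes (5.48% higher and 5.46% lower). It was lower in the knock-in. Of the 29 members, 14 had positive and 15 negative log2 differences, with a median of -0.0098, and the median over all tested genes was 0.0007. The median size of the difference was 0.11 on the log2 scale, against 0.14 over all tested genes.

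The intervals of the differences were narrow for most members. For 24 of 29 the 95% interval of the log2 difference lay wholly within a 1.5-fold change in either direction. The same held for 59.4% of all tested genes, and for 62.4% of those within the members' range of mean CPM. The other 5 members were Atr, Usp11, Chek1, Top2a and Tdp1, of which all but Atr averaged under 3 CPM in each group. The median coefficient of variation of CPM among libraries was 7.03% in knock-in and 7.72% in wild-type livers over the tested members, against 12.4% and 12.5% over all tested genes. Whether it differs from that of genes at like levels was not tested.

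**Figure D2:**
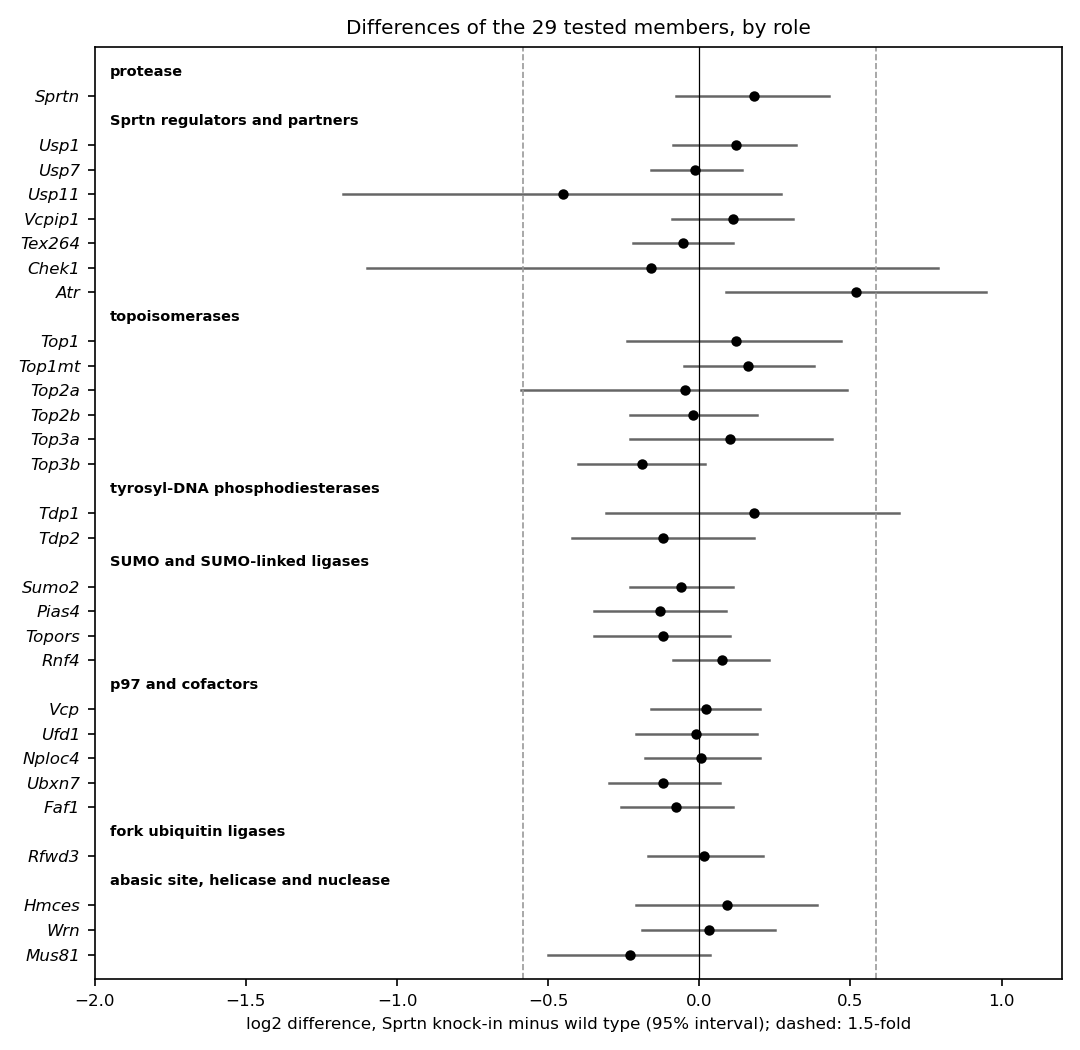
Log2 differences, knock-in minus wild type, of the 29 tested members with 95% intervals from edgeR, grouped by role; dashed lines mark 1.5-fold. Only the interval of Atr lies wholly on one side of 0, and those of Usp11 and Chek1 are the widest.

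The mutated gene itself was transcribed in every library. Sprtn, on chromosome 8 (124897886 to 124906161), had 10.3, 11.9, 12.2 and 10.7 CPM in the knock-in libraries, against 9.60, 11.3 and 9.15 CPM in the wild-type libraries. The groups overlapped, since wild-type replicate 2 stood above 2 of the knock-in libraries. The log2 difference was 0.18 with a 95% interval from -0.078 to 0.43 (edgeR adjusted p = 0.588), which excludes a 1.5-fold change. A missense change need not alter the amount of its transcript, so these levels do not check the genotype labels. Exons of Gm45709, on the other strand, cover 10.4% of the exonic bases of Sprtn, and the protocol describes no step that marks strand.

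The genes that control SPRTN include deubiquitinating enzymes and checkpoint kinases. Atr encodes the kinase that responds to stalled forks, and it had the largest log2 difference of the 29 members. It had 8.43, 14.1, 11.8 and 12.2 CPM in the knock-in libraries, against 9.91, 7.11 and 7.32 CPM in the wild-type libraries. Knock-in replicate 1 stood below wild-type replicate 1, and the other 3 knock-in libraries stood above all 3 wild-type libraries. Its log2 difference was 0.52 ± 0.19 (SE) with a 95% interval from 0.087 to 0.95, and it was not called (edgeR adjusted p = 0.392). The exact two-sided permutation p on CPM was 0.0857, where 35 splits allow 0.0286 at the lowest. Leaving out 1 library at a time gave log2 differences from 0.42 without knock-in replicate 2 (edgeR adjusted p = 0.581) to 0.69 without wild-type replicate 1 (edgeR adjusted p = 0.164). It was 0.65 without knock-in replicate 1, the library with muscle transcripts (edgeR adjusted p = 0.342). The unadjusted p was over 0.05 without knock-in replicate 2 or 4 or wild-type replicate 2 or 3. Of the exonic bases of Atr (chromosome 9, 95857597 to 95951781), 5.03% are shared with genes on the opposite strand and 0.753% with genes on the same strand.

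Chek1, which encodes the kinase CHK1 that ATR activates, had 0.146 TPM on average. Its counts were 11, 15, 12 and 16 in the knock-in libraries, against 23, 7 and 18 in the wild-type libraries. The wild-type libraries spanned the whole knock-in range, and the interval of the log2 difference ran from -1.10 to 0.79 (edgeR adjusted p = 0.917).

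The deubiquitinating enzymes that in human cells act on SPRTN averaged 13.8 TPM for Usp7, 9.04 TPM for Usp1, 8.70 TPM for Vcpip1 and 0.212 TPM for Usp11 over the 7 libraries. Among these enzymes Usp7 had the smallest difference between genotypes, with 53.7, 56.9, 53.0 and 53.4 CPM in knock-in livers and 54.3, 54.6 and 55.3 CPM in wild-type livers. Its log2 difference was -0.013 with an interval from -0.16 to 0.14 (edgeR adjusted p = 0.958). Usp1, which also removes ubiquitin from PCNA and FANCD2, had 17.7 ± 0.960 CPM in knock-in and 16.3 ± 1.37 CPM in wild-type livers (edgeR adjusted p = 0.655). Vcpip1 had 44.5 ± 3.13 CPM in knock-in and 41.3 ± 3.19 CPM in wild-type livers (edgeR adjusted p = 0.679). Both had overlapping groups and a log2 difference of 0.12 and 0.11, within a 1.5-fold change by their intervals. Usp11 was low, at 0.574, 0.262, 0.406 and 0.518 CPM in knock-in livers and 0.524, 0.649 and 0.645 CPM in wild-type livers. The lowest wild-type library stood below 1 knock-in library, and the log2 difference of -0.45 had an interval from -1.18 to 0.27 (edgeR adjusted p = 0.628). Tex264, which in human cells brings p97 and SPRTN to trapped TOP1, had 66.9 ± 3.67 CPM in knock-in and 69.4 ± 1.14 CPM in wild-type livers (edgeR adjusted p = 0.819).

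**Figure D3:**
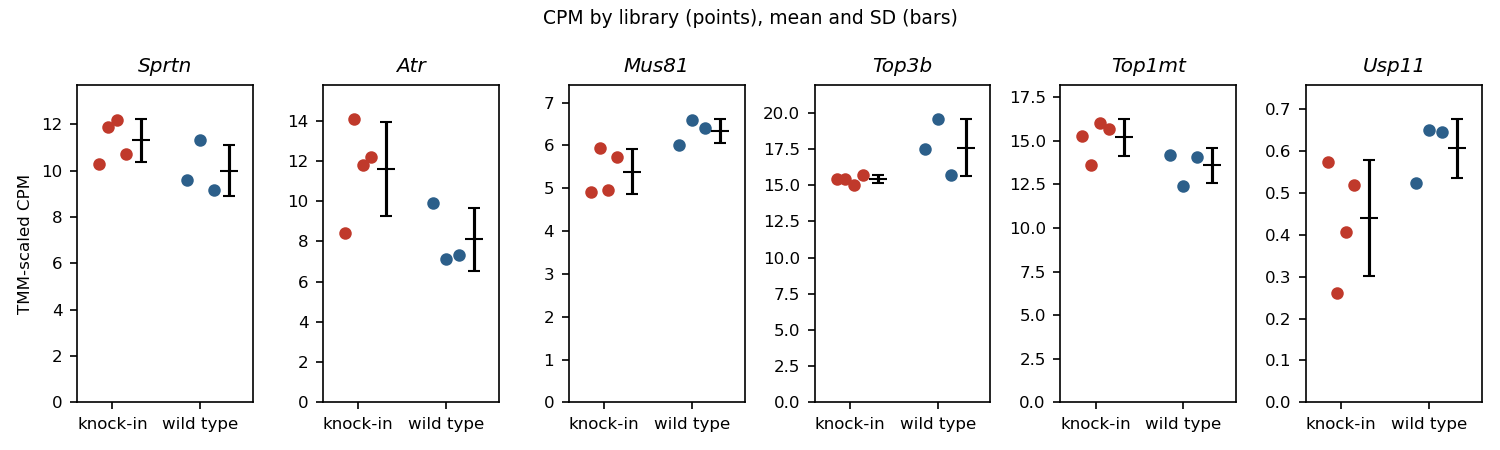
TMM-scaled CPM of Sprtn and 5 other members in each library (points; 4 knock-in in red, 3 wild type in blue), with the mean and SD beside them. The axes start at 0. Mus81 is the member among all 29 tested whose knock-in libraries all lie on one side of the wild-type libraries, and in Atr 1 knock-in library lies among the wild-type values.

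Of the 6 topoisomerase genes 3 had positive and 3 negative log2 differences, and all had overlapping groups. Among the nuclear enzymes the liver contained mainly Top2b and Top1. Top2b encodes the type II enzyme of cells that do not divide, and had 14.1 ± 0.821 TPM in knock-in and 14.4 ± 1.21 TPM in wild-type livers. Top1, the main enzyme that relaxes DNA ahead of RNA polymerase, had 10.4 ± 2.20 TPM in knock-in and 9.69 ± 1.72 TPM in wild-type livers. Top2a, the type II enzyme of dividing cells, had 0.239 ± 0.0624 TPM in knock-in and 0.249 ± 0.0373 TPM in wild-type livers. The ratio of Top2b to Top2a in TPM was 71.2, 48.1, 72.6 and 52.9 in the knock-in libraries, against 61.8, 70.8 and 45.0 in the wild-type libraries, and the groups overlapped (exact two-sided permutation p on the log2 ratio = 0.857).

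Top2b also showed how unequal the spread could be between groups in CPM. It had 45.4, 46.2, 45.4 and 45.7 CPM in the knock-in libraries, against 50.8, 48.6 and 39.6 CPM in the wild-type libraries. In CPM the wild-type libraries lay on both sides of the closely grouped knock-in libraries, and the log2 difference was -0.021 with an interval from -0.23 to 0.19 (edgeR adjusted p = 0.954). In TPM the ranges were alike, with 13.2 to 15.2 TPM in knock-in and 13.0 to 15.3 TPM in wild-type livers. Of the exonic bases of Top2b, 12.3% are shared with Rarb on the opposite strand. Top3b, a type IA enzyme that acts on DNA and RNA, had 15.4, 15.4, 15 and 15.7 CPM in knock-in livers and 17.5, 19.6 and 15.7 CPM in wild-type livers. Wild-type replicate 3 was level with the highest knock-in library in CPM, and the log2 difference of -0.19 did not pass (edgeR adjusted p = 0.496). In TPM the groups just missed each other, with 3.42 to 3.86 TPM in knock-in and 3.89 to 4.69 TPM in wild-type livers. Whether the spread itself differed between genotypes was not tested.

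None of the other topoisomerases passed the test. Top1mt, the mitochondrial type IB enzyme, had 15.3, 13.6, 16.0 and 15.7 CPM in knock-in livers and 14.2, 12.4 and 14.1 CPM in wild-type livers. Knock-in replicate 2 stood below 2 wild-type libraries, and the log2 difference of 0.16 did not pass (edgeR adjusted p = 0.559). Top3a, the decatenase that also acts in mitochondria, had 5.53 ± 0.856 CPM in knock-in and 5.15 ± 0.275 CPM in wild-type livers (edgeR adjusted p = 0.828). Top1 varied more than most members, at 50.2, 64.8, 44.5 and 61.5 CPM in knock-in livers and 54.0, 41.7 and 57.1 CPM in wild-type livers. Its libraries were mixed between genotypes, and the interval of its log2 difference ran from -0.24 to 0.47 (edgeR adjusted p = 0.820).

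The 2 phosphodiesterases differed in abundance. Tdp2 releases topoisomerase II remnants, and had 15.6 ± 0.528 TPM in knock-in and 17.1 ± 2.58 TPM in wild-type livers. Tdp1 releases topoisomerase I remnants, and had 0.858 ± 0.203 TPM in knock-in and 0.763 ± 0.144 TPM in wild-type livers. Tdp2 had 17.9, 16.4, 16.3 and 16.5 CPM in the knock-in libraries, against 21, 19.4 and 14.1 CPM in the wild-type libraries. Wild-type replicate 3 stood below every knock-in library while the other 2 stood above, and the log2 difference was -0.12 (edgeR adjusted p = 0.777). Tdp1 had 1.88, 2.94, 2.33 and 2.80 CPM in the knock-in libraries, against 2.38, 1.75 and 2.45 CPM in the wild-type libraries. Its groups overlapped, and the log2 difference of 0.18 had an interval from -0.31 to 0.66 (edgeR adjusted p = 0.790).

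SUMO and the ligases linked to it mark trapped proteins for removal. Sumo2 had 49.3, 51.0, 47.6 and 53.9 CPM in knock-in livers and 54.2, 53.5 and 50.1 CPM in wild-type livers, with a log2 difference of -0.059 (edgeR adjusted p = 0.799). How reads that match similar SUMO sequences were counted is not stated, and whether this touches its counts was not tested. Pias4, a SUMO ligase, had 17 ± 1.45 CPM in knock-in and 18.7 ± 1.48 CPM in wild-type livers (edgeR adjusted p = 0.643). Topors, a ligase that binds TOP1, had 26.6 ± 1.86 CPM in knock-in and 29 ± 3.26 CPM in wild-type livers (edgeR adjusted p = 0.677). Rnf4 adds ubiquitin to SUMO-modified proteins, and had 79.2 ± 3.36 CPM in knock-in and 75.3 ± 2.20 CPM in wild-type livers (edgeR adjusted p = 0.733). All of them had overlapping groups, and their intervals lay within a 1.5-fold change.

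Sumo3 was counted in 2 overlapping rows on chromosome 10, and these were looked up by identifier after the name had not matched. The row of the gene that GENCODE release M21 calls Sumo3 had 59.9, 53.4, 57.8 and 56.9 CPM in the knock-in libraries, against 61.0, 63.4 and 70.3 CPM in the wild-type libraries. All knock-in libraries stood below the wild-type libraries, and the log2 difference of -0.19 ± 0.080 (SE) was not called (edgeR adjusted p = 0.457). Its exact two-sided permutation p on CPM was 0.0286, the lowest that these group sizes allow, and its unadjusted edgeR p was 0.0434. Without an expression filter the unadjusted edgeR p was 0.0577, and with the replicate block 0.119. In the block fit knock-in replicate 4, which has no wild-type counterpart, does not inform the difference. DESeq2 gave an unadjusted p of 0.0509. Leaving out 1 library at a time gave unadjusted edgeR p-values from 0.0325 to 0.176. As a row outside the names listed, it is not in the counts of the 29 members. The other row, a transcript that also covers Ube2g2 exons, had 101, 10, 112 and 67 counts in the knock-in libraries, against 10, 23 and 85 in the wild-type libraries. Its libraries were mixed between genotypes and its log2 difference of 0.99 had an interval from -0.77 to 2.75 (edgeR adjusted p = 0.661). All of its annotated exonic bases lie in exons of other genes on the same strand, so that reads of the 2 rows cannot be assigned with certainty.

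The p97 genes had log2 differences from -0.12 to 0.022. Vcp had 382, 384, 356 and 389 CPM in the knock-in libraries, against 387, 365 and 365 CPM in the wild-type libraries. The libraries of both genotypes were mixed, and the log2 difference was 0.022 with an interval from -0.16 to 0.20 (edgeR adjusted p = 0.945). Ufd1 and Nploc4, the pair that recruits p97 to ubiquitin chains, had log2 differences of -0.0098 and 0.0066 (edgeR adjusted p = 0.977 and 0.983). The adaptors Ubxn7 and Faf1 had -0.12 and -0.077 (edgeR adjusted p = 0.621 and 0.753). All 5 genes had overlapping groups in CPM, and in TPM Faf1 did not, with 9.15 to 9.80 TPM in knock-in and 9.97 to 10.6 TPM in wild-type livers. The outermost bounds of the 95% intervals were -0.30 and 0.20 on the log2 scale.

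Ligases, a helicase and nucleases that act at blocked forks completed the set. Mus81, the subunit of a structure-specific nuclease that cuts stalled forks, had 4.92, 5.93, 4.97 and 5.74 CPM in the knock-in libraries, against 6.02, 6.59 and 6.40 CPM in the wild-type libraries. All 4 knock-in libraries stood below all 3 wild-type libraries, by a gap between 5.93 and 6.02 CPM. In TPM the groups overlapped, with 2.54 to 3.47 TPM in knock-in and 3.14 to 3.75 TPM in wild-type livers. The log2 difference was -0.23 ± 0.12 (SE) and was not called (edgeR adjusted p = 0.513; exact two-sided permutation p on CPM = 0.0571). Of the exonic bases of Mus81 (chromosome 19, 5482345 to 5488402), 4.85% are shared with Efemp2 on the opposite strand.

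Rfwd3, a ubiquitin ligase at single-stranded DNA, had 20.5 ± 1.32 CPM in knock-in and 20.3 ± 1.18 CPM in wild-type livers (edgeR adjusted p = 0.958). Wrn, the helicase lost in Werner syndrome, had 9.80 ± 0.754 CPM in knock-in and 9.59 ± 0.277 CPM in wild-type livers (edgeR adjusted p = 0.934). Hmces, which shields abasic sites by forming a crosslink with them, had 6.6 ± 0.575 CPM in knock-in and 6.19 ± 0.808 CPM in wild-type livers (edgeR adjusted p = 0.827). All of them had overlapping groups, and their intervals lay within a 1.5-fold change.

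Some members made mainly in dividing cells had few counts. Traip, a ligase of the replisome, had 9, 5, 5 and 4 counts in the knock-in libraries, against 4, 2 and 11 in the wild-type libraries. Neil3, a glycosylase that unhooks crosslinks, had 2, 10, 2 and 0 counts in the knock-in libraries, against 2, 6 and 3 in the wild-type libraries. Both were too low for the test across genes. Their summed counts scaled by library gave a ratio of knock-in to wild type of 1.06 for Traip (exact 95% interval from 0.544 to 2.12) and of 1.00 for Neil3 (0.422 to 2.44), intervals that cover counting error only. The 0 counts of Neil3 in knock-in replicate 4 allow up to 0.0706 CPM at 3 counts.

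Top2a had 41, 52, 35 and 52 counts in the knock-in libraries, against 49, 39 and 60 in the wild-type libraries, and its log2 difference was -0.048 with an interval from -0.59 to 0.49 (edgeR adjusted p = 0.958). All 20 markers of mitotic cells had counts in at least 1 library, and together they summed to 14.3, 13.3, 13.3 and 10 CPM in the knock-in libraries, against 13.4, 11.3 and 10.9 CPM in the wild-type libraries. These sums overlapped (exact two-sided permutation p = 0.514).

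**Figure D4:**
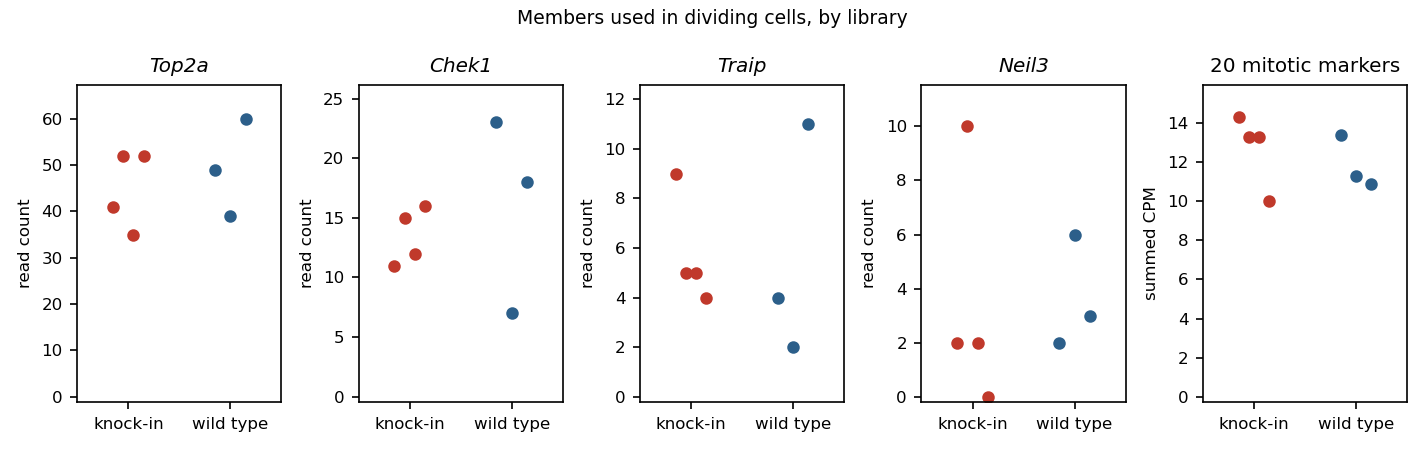
Read counts of Top2a, Chek1, Traip and Neil3 and the summed CPM of 20 mitotic markers in each library (4 knock-in in red, 3 wild type in blue), with no scaling of the counts for depth. All 5 panels show overlapping groups, and Traip and Neil3 stay between 0 and 11 counts.

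Neighbouring pathways were compared through 5 further lists. Among all tested genes, 50.1% had positive log2 differences, 10.6% had an unadjusted edgeR p under 0.05 and 10.9% had groups without overlap. In none of the lists did edgeR, DESeq2 or limma-voom call a gene at an adjusted p under 0.05. Of 20 SUMO conjugation genes tested, 8 had positive log2 differences, the median was -0.015, 1 had an unadjusted edgeR p under 0.05 (10.6% of all tested genes), and 3 had groups without overlap (10.9% of all tested genes), among them Zfp451, a SUMO ligase named after its values were seen, with a log2 difference of 0.14. The gene with the low p, the SUMO protease Senp5, had 12.7, 14.4, 14.2 and 14.1 CPM in knock-in livers and 11.8, 11.1 and 11.7 CPM in wild-type livers, without overlap (log2 difference 0.27; edgeR adjusted p = 0.346). Ranbp2, a nucleoporin with SUMO ligase activity, had 82.3 ± 11.1 CPM in knock-in and 70.3 ± 3.16 CPM in wild-type livers, also without overlap (edgeR adjusted p = 0.497).

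Of 24 other p97 cofactors tested, 16 had positive log2 differences with a median of 0.033, where 50.1% of all tested genes were positive, and 2 had an unadjusted edgeR p under 0.05, as did 10.6% of all tested genes. Ubxn6, an adaptor of p97 in lysosome clearance, had 48.6, 42.9, 47.3 and 45.0 CPM in knock-in livers and 53.3, 56.9 and 53.0 CPM in wild-type livers. All knock-in libraries stood below the wild-type libraries, and the log2 difference of -0.24 did not pass (edgeR adjusted p = 0.342). In this list 2 genes were higher and 1, Ubxn6, was lower without overlap, where 10.9% of all tested genes had groups without overlap. The 2 higher ones, Derl1 and Plaa, were named after their values were seen. Their log2 differences were 0.12 and 0.073 (edgeR adjusted p = 0.569 and 0.705). Zfand2a, a stress-induced zinc finger protein, had 11.8 ± 1.43 CPM in knock-in and 9.36 ± 1.27 CPM in wild-type livers with overlap (edgeR adjusted p = 0.414).

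The list of PCNA and translesion synthesis genes had positive log2 differences in 16 of 20 tested members with a median of 0.12, where 50.1% of all tested genes were positive. Unadjusted, 1 of them had an edgeR p under 0.05 (10.6% of all tested genes), and 3 had groups without overlap (10.9% of all tested genes), of which the ubiquitin-conjugating enzyme Ube2a was the only one lower, with 21.5 ± 0.910 CPM in knock-in and 24 ± 1.13 CPM in wild-type livers (edgeR adjusted p = 0.499; named after its values were seen). Hltf, the ligase that extends ubiquitin chains on PCNA, had 14.2, 12.7, 13.0 and 13.1 CPM in knock-in livers and 10.7, 8.89 and 10.5 CPM in wild-type livers. The groups did not overlap, and its log2 difference of 0.40 ± 0.10 (SE) was not called (edgeR adjusted p = 0.257; DESeq2 adjusted p = 0.0711). Pold2, a subunit of DNA polymerases delta and zeta, had 12.4 ± 1.06 CPM in knock-in and 10.6 ± 0.955 CPM in wild-type livers without overlap (edgeR adjusted p = 0.492).

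Of 17 tested genes for other proteases and adduct processing, 9 had positive log2 differences with a median of 0.046, and 1 had an unadjusted edgeR p under 0.05, against 10.6% of all tested genes. Mre11a, the nuclease that trims blocked DNA ends, had 6.09, 5.09, 5.93 and 5.86 CPM in knock-in livers and 4.62, 4.99 and 4.14 CPM in wild-type livers. Its groups did not overlap, and the log2 difference of 0.33 did not pass (edgeR adjusted p = 0.404). Fen1, the flap nuclease, had 4.27 ± 1.05 CPM in knock-in and 3.28 ± 0.393 CPM in wild-type livers (edgeR adjusted p = 0.541).

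Among 15 tested partners of ATR and CHK1, 9 had positive log2 differences with a median of 0.028, and 3 had an unadjusted edgeR p under 0.05, against 10.6% of all tested genes. Rhno1, which binds the checkpoint clamp, had 2.63, 4.35, 4.13 and 3.88 CPM in knock-in livers and 2.36, 2.40 and 2.66 CPM in wild-type livers. As with Atr, knock-in replicate 1 stood among the wild-type values, and the log2 difference of 0.60 did not pass (edgeR adjusted p = 0.347). Rpa3, the smallest subunit of the protein that coats single-stranded DNA, had 6.02, 5.85, 5.80 and 6.80 CPM in knock-in livers and 7.41, 7.49 and 7.67 CPM in wild-type livers. Its groups did not overlap, and the log2 difference of -0.30 did not pass (edgeR adjusted p = 0.376). The other subunits of the same protein had positive differences without overlap and were named after their values were seen. Rpa2, the remaining gene with an unadjusted p under 0.05, had 5.08 ± 0.246 CPM in knock-in and 4.19 ± 0.309 CPM in wild-type livers (log2 difference 0.28; edgeR adjusted p = 0.460). Rpa1 had 27 ± 1.56 CPM in knock-in and 23.5 ± 2.21 CPM in wild-type livers (log2 difference 0.20; edgeR adjusted p = 0.473).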

How the data were processed

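Liver RNA was enriched for poly(A) and converted to cDNA with random hexamers and ordinary dNTPs, per the labels' protocols. The genome build was mm10, per the submitters' processing notes, while mapper and counter are not given in sources used here. The authors deposited whole-number total counts per gene and, per the file headers, TPM values per library, which were used for levels and ratios between genes and, where stated, to set a member's range in one genotype beside the other. The 14 RPKM and CPM columns were not used.

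The test on counts was that of edgeR 4.0.16 under R 4.3.3 (TMM scaling, default expression filter, quasi-likelihood F test, group as the only term, Benjamini-Hochberg over 13989 genes, threshold 0.05). CPM values are TMM-scaled, and log2 differences are knock-in minus wild type. Total counts per library were 36928472 to 46755357. All members were named, and of each other list the 2 genes with the smallest p. Zfp451, Derl1, Plaa, Ube2a, Rpa1 and Rpa2 were added after their values were seen. The members and lists were chosen with earlier results of these data known. Alternatives were DESeq2 1.42.0, limma-voom 3.58.1, RLE scaling, 2 other filters, a block on replicate number, and omission of each library in turn. Fits were tested on simulated counts, with the changed genes drawn from all tested genes. There the edgeR test called 16% of 50 genes raised 1.5-fold and 70% of 50 genes raised 2-fold. It called 94% of those raised 4-fold and 92% of those lowered to 0.25-fold, and 5 of its 141 calls were false. Exon overlaps and the Sprtn codons came from GENCODE release M21, in which 99.6% of identifiers were found. No pair of libraries within a group agreed within sampling noise.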

Additional observations from a re-analysis of the deposited data

Results flagged for a closer look

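Among the 4 knock-in libraries, 1 library stood far from the others in 5 of 55 sets of values checked (33 rows of the module, 10 genes of other pathways and 12 marker lists), where chance gives about 1 in 20; the number given is the gap to the nearest library over the whole range. Tdp2 had 17.9 CPM in replicate 1 and 16.3 to 16.5 CPM in the others (0.842). Senp5 had 12.7 CPM in replicate 1 and 14.1 to 14.4 CPM in the others (0.837). The Kupffer cell markers summed to 417 CPM in replicate 3 and 314 to 331 CPM in the others (0.842). The skeletal muscle markers summed to 71 CPM in replicate 1 and 0.472 to 0.847 CPM in the others (0.995). The adipocyte markers summed to 17.2 CPM in replicate 2 and 3.81 to 4.68 CPM in the others (0.936), against 1.62 to 3.12 CPM in wild-type livers. Causes were not tested.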

How the results depend on the processing

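The count of members called was 0 in each direction under all 13 alternatives, as was that of the 5 other lists. Of 531 log2 differences of 41 named rows under these alternatives, 511 kept their direction and 0 were called. Of the 20 that changed direction, 1 came with the replicate block, Wrn at -0.012. The others came from leaving out 1 library, with ranges of -0.054 to 0.050 for Ufd1, -0.17 to 0.041 for Top2a, -0.033 to 0.053 for Nploc4, -0.024 to 0.059 for Rfwd3, -0.12 to 0.051 for Top2b, -0.033 to 0.00039 for Usp7, -0.0099 to 0.065 for Wrn, -0.48 to 0.23 for Chek1, -0.010 to 0.16 for Hmces and -0.0090 to 0.21 for Top1. Atr kept a positive difference, from 0.42 to 0.69, with an adjusted p from 0.164 to 0.862.

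Members with an unadjusted p under 0.05 numbered 0 to 1 higher and 0 to 2 lower when 1 library was left out. Atr was no longer among them without knock-in replicate 2 or 4 or wild-type replicate 2 or 3. Over all genes, DESeq2 called 135 higher and 73 lower, limma-voom 5 higher and 2 lower, and edgeR without an expression filter 13 higher and 5 lower. Leaving out a library gave 2 to 64 higher and 1 to 34 lower, the largest counts without wild-type replicate 1. With the replicate block, edgeR called 1 gene higher and 0 lower, and 0 members had an unadjusted p under 0.05. Replicate number 4 occurs only among knock-in libraries, so in that fit knock-in replicate 4 does not inform the difference between genotypes. Samples with the same replicate number did not deviate together (correlations of -0.061, 0.00511 and -0.0193). The correlations were given no interval, so they cannot settle whether the number pairs the samples. The cause of these shifts was not tested. Of the tested members, Usp11, Chek1, Top2a, Tdp1 and Atr had 95% intervals that reach past a 1.5-fold change, as did the counting intervals of Traip and Neil3. How far depth or the spread between libraries sets them was not tested.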
